A study of Mus musculus with 13 samples.

Results

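Fetal livers of mice carrying the MommeD45 allele of Klf1 over a null allele (D45/-) were compared with livers carrying no intact allele (-/-), to describe what the MommeD45 protein keeps of KLF1 function and which genes stay low. The genes are those that the authors' cuffdiff table lists as significant between these genotypes, 1085 of the 2036 genes in the whole table, with each change computed as log2 of the abundance in D45/- over that in -/-. Whole livers were taken at 14.5 days post coitum (dpc), and each genotype had 3 mRNA libraries. Both genotypes share the absence of a wildtype Klf1 copy, so MommeD45 was the sole copy left in D45/-. Livers with 1 wildtype copy over a null allele (+/-) served as the level that an intact copy gives, and mRNA of livers with both copies wildtype is not analysed here. The sequence change of MommeD45, how the null allele was made, and whether replicates were separate embryos are not stated in the labels, so the authors' p-values may measure technical spread. Globin mRNA was removed from the RNA with a capture kit before poly(A) selection, per the labels. KLF1-bound DNA came from MommeD45 and wildtype livers, in 1 library each made from 2 pooled replicates, and how many copies of MommeD45 those livers carried is not stated.

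KLF1, a transcription factor with zinc fingers made in the red cell lineage, binds CACCC-type DNA motifs. It is known for activating adult beta-globin, the enzymes of heme synthesis, the proteins of the red cell membrane and its skeleton, and regulators of the last cell divisions. At this age the fetal liver is the main site of red cell production, and it also holds hepatocytes, macrophages, endothelium and other blood cells. In whole tissue, fewer cells of a type and less RNA per cell cannot be told apart.

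Klf1 mRNA itself was present in the livers with the MommeD45 allele. The authors' deposited table gave 398 FPKM (an abundance scaled for gene length and library size, with 1 value per genotype and no replicate values) in D45/-, against 34.8 in -/- and 378 in +/-. The log2 ratio of D45/- over -/- was 3.52, with a q of 0.00159 per the authors' deposited table. Klf1 mRNA in D45/- thus came to 105% of +/-, with reads of the null allele not told apart in either. From a short set of cell type markers, the authors' table lists 5 erythroid ones in this comparison, among them Epor, Alas2, Slc4a1 and Tfrc, all higher in D45/-, and none of the hepatocyte ones (Alb, Afp, Apoa1, Ttr). Markers of other cells in the same set were lower in D45/-: Elane, Ctsg and Prtn3 (granulocyte), Pecam1 and Kdr (endothelial) and Emr1 (macrophage). Their log2 ratios ran from -0.86 for Kdr to -1.34 for Elane.

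Of the 1085 genes, which are 8.37% of the 12965 tests assumed for this comparison, 451 were higher in D45/- (3.48% of tests) and 634 were lower (4.89%). The higher genes were the more abundant. The median of the higher genes was 42.8 FPKM in D45/- against 20.6 in -/-, and that of the lower genes was 3.00 FPKM in D45/- against 8.05 in -/- (values of the authors' deposited table). At least 100 FPKM in the higher genotype was reached by 128 of the 451 higher genes and by 36 of the 634 lower ones. The median log2 ratio was 1.02 among higher genes (quartiles 0.84 and 1.39) and -1.23 among lower ones (-1.70 and -0.97), and -0.87 over all 1085. Changes past 8-fold were found for 15 higher and 28 lower genes. The smallest p that the authors' table lists, 5e-05, was reached by 414 genes, and the largest q was 0.0496.

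Several red cell genes had the highest ratios. Epb4.9, the gene of dematin, which crosslinks the membrane skeleton (chr14:71001990-71035855, mm9), had 24.3 FPKM in D45/-, against 0.400 in -/- and 112 in +/- (the authors' deposited table; log2 5.92). Tspo2, an erythroid member of the translocator protein family, measured 29.2 FPKM in D45/-, against 1.98 in -/- and 54.3 in +/- (the authors' deposited table; 3.88). Fn3k, whose kinase frees proteins of bound sugars, stood at 5.27 FPKM in D45/-, against 0.376 in -/- and 52.4 in +/- (the authors' deposited table; 3.81). These genes lay far above -/- and yet below +/-, by differing amounts. Dnajb13 reached 85.6% of +/-, with 5.92 FPKM in D45/- against 0.686 in -/- and 6.92 in +/- (the authors' deposited table; 3.11). Mgst3, a microsomal glutathione transferase, had 430 FPKM in D45/-, against 55.0 in -/- and 829 in +/- (the authors' deposited table; 2.97). Bcl2l15, of the Bcl-2 family, exceeded +/-, with 12.7 FPKM in D45/-, against 1.47 in -/- and 7.51 in +/- (the authors' deposited table; 3.11).

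The promoters of 4 of the higher genes are shown because a KLF1 peak has its summit within 500 bp of their start, with both alleles or with the wildtype alone. Summit positions are counted from the start of the mm9 locus. Sequences are from RefSeq (GRCm38.p6), 250 bases before to 50 after the gene start, read 5′ to 3′ on the gene's strand. Capitals mark the 8-base CACCC-type motifs CCACACCC, CCACGCCC, CCCCACCC and CCCCGCCC, searched on both strands with overlaps allowed. Icam4 (chr9:21029182-21029481, plus strand) and Fn3krp (chr11:121421123-121421422, plus strand) had a peak in wildtype and none listed in MommeD45. Ppox (chr1:171281137-171281436, minus strand) and the adult beta-globin row Beta-s, matched to RefSeq Hbb-bs (chr7:103827879-103828178, minus strand), had peaks in both.
Icam4: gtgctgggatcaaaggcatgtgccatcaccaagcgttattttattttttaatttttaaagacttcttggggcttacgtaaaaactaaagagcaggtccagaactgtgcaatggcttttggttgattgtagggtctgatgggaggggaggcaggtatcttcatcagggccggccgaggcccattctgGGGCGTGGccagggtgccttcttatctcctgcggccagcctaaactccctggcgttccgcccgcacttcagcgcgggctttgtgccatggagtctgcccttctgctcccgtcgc
Fn3krp: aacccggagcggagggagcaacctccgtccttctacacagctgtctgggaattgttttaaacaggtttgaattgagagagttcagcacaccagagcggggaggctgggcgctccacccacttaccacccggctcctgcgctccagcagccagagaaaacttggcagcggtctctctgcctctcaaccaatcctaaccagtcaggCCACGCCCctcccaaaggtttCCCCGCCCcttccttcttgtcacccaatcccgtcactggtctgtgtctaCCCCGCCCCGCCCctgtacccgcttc
Ppox: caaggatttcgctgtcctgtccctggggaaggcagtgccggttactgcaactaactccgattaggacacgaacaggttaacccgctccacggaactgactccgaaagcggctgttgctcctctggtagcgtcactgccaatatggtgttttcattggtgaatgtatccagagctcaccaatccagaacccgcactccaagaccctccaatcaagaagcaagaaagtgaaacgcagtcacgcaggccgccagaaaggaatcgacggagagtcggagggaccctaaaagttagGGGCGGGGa
Beta-s: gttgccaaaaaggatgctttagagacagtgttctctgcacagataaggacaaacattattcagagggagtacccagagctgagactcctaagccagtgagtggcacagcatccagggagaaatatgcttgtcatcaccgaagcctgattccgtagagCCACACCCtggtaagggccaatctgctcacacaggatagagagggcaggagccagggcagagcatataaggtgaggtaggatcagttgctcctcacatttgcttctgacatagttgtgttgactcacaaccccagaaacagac

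The Icam4 promoter holds 1 motif on the opposite strand, at -64 to -57, and the wildtype summit lay at 29 bases after the start with a fold enrichment of 7.84 in the authors' peak list. Icam4 is an adhesion molecule of the red cell surface and carries the LW blood group. It measured 119 FPKM in D45/-, against 25.5 in -/- and 259 in +/-, according to the authors' deposited table, which is 46.1% of +/-. The Fn3krp promoter holds 4 motifs, of which those starting at 24 and 29 overlap, and the wildtype summit lay at -37 (fold enrichment 4.903). Fn3krp, a relative of Fn3k in protein repair, stood at 8.51 FPKM in D45/-, against 3.35 in -/- and 19.5 in +/- (the authors' deposited table; 43.6% of +/-). Ppox, the penultimate enzyme of heme synthesis, had 198 FPKM in D45/-, against 72.3 in -/- and 206 in +/- (the authors' deposited table; 96.2% of +/-). Its motif lies at 41 to 48, and the summits lay at 183 in MommeD45 (fold enrichment 4.17) and at 131 in wildtype (5.13). The Beta-s motif, the CACCC box of adult beta-globin, lies at -93 to -86, with summits at -98 in MommeD45 (fold enrichment 3.65) and at -73 in wildtype (5.63). These 4 were picked as examples, and Beta-s kept 77.9% of +/-. Over all higher genes with start site peaks and a +/- level, the 22 with both peaks had a median of 78.0% of +/-, from 44.2% for Ttll12 to 101%. The 39 with the wildtype peak alone had a median of 74.7%, from 40.2% for Tmc6 to 107%, so the 2 ranges overlap. At least 1 motif was found in 192 of the 366 promoters of higher genes (52.5%, exact 95% interval 47.2 to 57.7). Lower genes had one in 239 of 494 (48.4%, 43.9 to 52.9), and the other genes in the authors' table in 45.7% (42 to 49.5). These intervals overlap. The shares were 36.3% of all protein-coding and 30% of all RefSeq promoters of this length. RefSeq matched 1082 of the 1085 genes and gave a promoter for 860.

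How near the D45/- livers came to +/- could be read for genes that are also listed in a comparison with +/-. Among the 451 higher genes, 396 had a +/- level, and 1 of these was listed at 0. In the remaining 395 the median D45/- level was 82.3% of +/- (quartiles 69.6% and 95.2%), while the -/- livers had a median of 40.0%. At least 50% of the +/- level was kept by 363 genes (91.9%, exact 95% interval 88.8 to 94.4, counting error only). The interval treats genes as independent, and these genes were chosen as higher than -/-. With -/- already at a median of 40.0%, that choice favours levels above 50%, so the share by itself does not measure kept function. Genes low in both genotypes and not listed between them are left out, so the share does not cover all genes that need KLF1. Between 80% and 120% lay 192 genes, from 120% upward 23, from 50% to 80% 148, and below 50% 32. The other 55 higher genes are not listed against +/- in either genotype. Among the 634 lower genes, 498 had a usable +/- level, of which D45/- had a median of 106% and -/- a median of 259%. Of these, 319 (64.1%) lay between 80% and 120% of +/-, 131 at 120% or more, and 10 below 50%. D45/- and -/- are set against the same +/- libraries, so these percentages share their denominator and carry no test. In each set the direction of D45/- against -/- was fixed by the choice of genes.

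**Figure D1:**
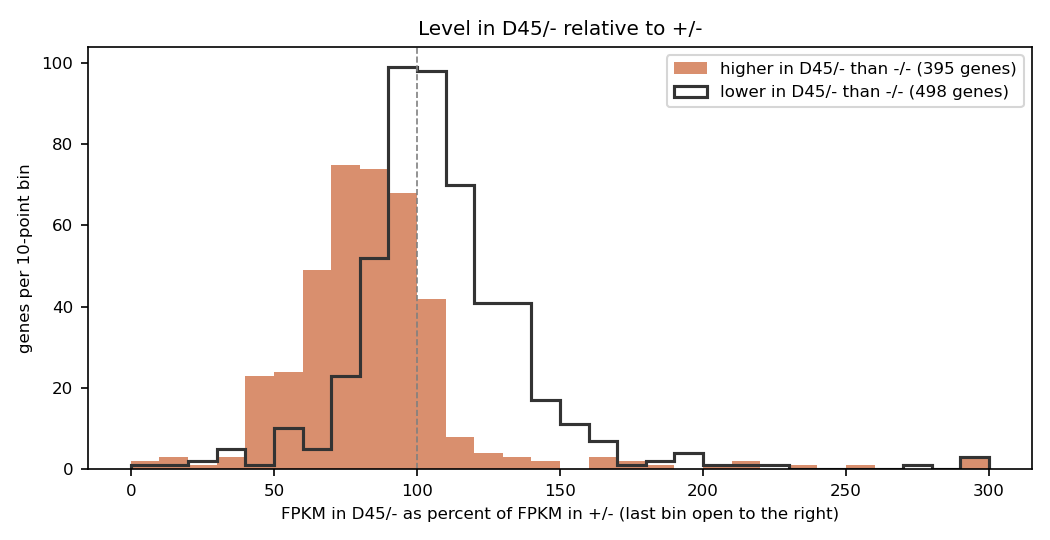
Histogram of the FPKM in D45/- as a percent of the FPKM in +/- (x axis, bins of 10 points, the last bin open to the right) by number of genes (y axis), for genes higher (filled) and lower (outline) in D45/- than in -/-. The higher genes centre on a median of 82.3% with a tail of 32 genes below 50%, and the lower genes on 106%.

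Genes of heme synthesis were higher in D45/-: 13 of 20 list members were listed higher and 0 lower (65% against 3.48% of all tests). The median log2 over listed members was 1.08. For each list count below, the shares over all tests are 3.48% higher and 4.89% lower. Alas2, the erythroid enzyme of the first step, measured 1420 FPKM in D45/-, against 636 in -/- and 1607 in +/- (the authors' deposited table; 88.4% of +/-). Alad, which joins its products, stood at 504 FPKM in D45/-, against 72.9 in -/- and 814 in +/- (the authors' deposited table; 61.9%). Urod, a later enzyme, reached 85.5% of +/-, at 727 FPKM in D45/- per the authors' deposited table. The 12 higher genes of this list with a +/- level spread from 53.7% for Tspo2 to 96.2% for Ppox. Slc25a37, which brings iron into mitochondria, reached 54.5% of +/-, with 302 FPKM in D45/- against 52.8 in -/- per the authors' deposited table, and the mitochondrial carrier Slc25a39 reached 60.5%. Abcb10 and Abcb6, ABC transporters tied to heme production, reached 93.0% and 95.6%. Uros is not listed against +/-.

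Adult beta-globin was among the most changed genes, within the limit that globin mRNA had been depleted and that its copies may share reads. Beta-s had 1362 FPKM in D45/-, against 98.2 in -/- and 1749 in +/- (the authors' deposited table; log2 3.79). The row that merges Hbb-b1,Hbb-b2 measured 680 FPKM in D45/-, against 61.4 in -/- and 1123 in +/- (the authors' deposited table; 60.6% of +/-). The embryonic beta-like gene Hbb-y went the other way, at 2003 FPKM in D45/-, against 10394 in -/- and 2554 in +/- (the authors' deposited table; log2 -2.38). Alpha-like genes were higher, with Hba-a2 at 935 FPKM in D45/- against 295 in -/-, and the embryonic Hba-x at 687 in D45/- against 274 in -/-, as the authors' deposited table gives it. Of 14 globin list members, 5 were listed higher and 1 lower.

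The membrane skeleton list had 14 of 25 members higher and 0 lower (median log2 ratio 1.27). Beside Epb4.9, Add2 (beta-adducin) stood at 285 FPKM in D45/-, against 50.9 in -/- and 259 in +/- (the authors' deposited table; 110% of +/-). Ank1 (ankyrin) had 219 FPKM in D45/-, against 47.2 in -/- and 309 in +/- (the authors' deposited table; 70.9%). The spectrin gene Sptb, of the long rods of the skeleton, reached 83.2%, and band 3 (Slc4a1), its main membrane anchor and the anion exchanger, 81.0%. Tmcc2 (46.5%) and Epb4.9 (21.7%) were the only listed members of this list below 50% of +/-. So within this list the kept level ran from 21.7% for dematin to 110% for beta-adducin. Its higher members include Xpo7, a nuclear exportin, and Trim58, which are also counted in the list of maturation genes below. The count and median of this list are thus not of skeleton proteins alone.

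Blood group and adhesion antigens had 10 of 25 members higher and 0 lower (median log2 ratio 1.48). Cd24a, a glycosylated surface antigen, measured 893 FPKM in D45/-, against 185 in -/- and 873 in +/- (the authors' deposited table; 102% of +/-). Ermap, the Scianna blood group protein, stood at 286 FPKM in D45/-, against 79.5 in -/- and 416 in +/- (the authors' deposited table; 68.8%). Rhd, of the Rhesus complex, reached 66.3%, and Kel, the Kell antigen, 74.7%. Icam4 was the lowest of the 9 higher antigen genes with a +/- level, while Darc of the same list, not listed between D45/- and -/-, is described further on at 22.4%. Erythroid identity markers, a list that shares genes with this one, had 14 of 22 higher and 1 lower, the fatty acid receptor gene Cd36 (5.86 FPKM in D45/- against 11.8 in -/- per the authors' deposited table). That list was made with earlier results of these data known. It holds Sowaha, Nxpe2, Paqr6 and Phospho1, which stood at 0.46%, 1.04%, 2.03% and 4.62% of +/- in -/-. Its count is therefore no independent evidence on erythroid identity. Hemgn, a nuclear protein of blood precursors, reached 71.2% and the erythropoietin receptor gene Epor 77.4% of +/-.

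Transporters and channels, the longest list, had 13 of 47 members higher and 1 lower (median log2 ratio 1.20), and 33 not listed. Among the higher members with a +/- level, kept levels ran from 6.66% of +/- for Slc2a4 to 124% for Aqp3. Kcnn4, the calcium-activated potassium channel of red cells, had 75.5 FPKM in D45/-, against 18.6 in -/- and 170 in +/- (the authors' deposited table; 44.5%). Slc22a4, which carries ergothioneine, measured 11.5 FPKM in D45/-, against 1.43 in -/- and 24.1 in +/- (the authors' deposited table; 47.9%). Atp2b4, a calcium pump, reached 70.6% and the nucleoside carrier Slc29a1 72.6%. Aqp3, a channel for water and glycerol, stood at 44.4 FPKM in D45/-, against 13.6 in -/- and 35.6 in +/- (values of the authors' deposited table). The lower member was the glucose transporter gene Slc2a3, at 25.9 FPKM in D45/-, against 98.6 in -/- and 27.9 in +/-, according to the authors' deposited table.

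Erythroid transcription factors had 11 of 30 members higher and 1 lower (median log2 ratio 1.33). Of the core erythroid complex, Tal1 reached 92.4% of +/- and its relative Lyl1 81.7%, while their partner Lmo2 reached 66.8%. Nfe2, a globin gene activator, had 232 FPKM in D45/-, against 94.8 in -/- and 225 in +/- (the authors' deposited table; 103%). Sox6, a repressor of embryonic globin, measured 18.1 FPKM in D45/-, against 3.55 in -/- and 31.4 in +/- (the authors' deposited table; 57.8%). Zbtb7a, another repressor of embryonic and fetal globin, reached 78.3%. Klf3, a repressor of the same family as KLF1 that is known to be its target, stood at 34.2 FPKM in D45/-, against 10.8 in -/- and 70.0 in +/- (the authors' deposited table; 48.8%). The lower member was Gata2, a factor of early progenitors, at 7.48 FPKM in D45/- against 13.1 in -/- per the authors' deposited table.

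Cell cycle genes had 11 of 38 members higher and 1 lower (median log2 ratio 0.96). The replication clamp gene Pcna had 726 FPKM in D45/-, against 372 in -/- and 750 in +/- (the authors' deposited table; 96.8% of +/-). Cyclins Ccne1 and Ccnd3, which drive entry into replication, reached 94.5% and 104%. E2f2 and E2f4, the E2F factors long tied to KLF1 in terminal red cell divisions, reached less. E2f2 (chr4:135728308-135751971, mm9) measured 83.8 FPKM in D45/-, against 20.6 in -/- and 203 in +/- (the authors' deposited table; 41.2%). E2f4 stood at 198 FPKM in D45/-, against 80.7 in -/- and 413 in +/- (the authors' deposited table; 47.9%). Cdkn2c, an inhibitor of cell cycle kinases, reached 69.0%. The only lower member was the inhibitor gene Cdkn1a, at 2.60 FPKM in D45/-, against 11.6 in -/- and 3.62 in +/-, as the authors' deposited table gives it.

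Genes of maturation, mitophagy and enucleation had 11 of 34 members higher and 0 lower (median log2 ratio 1.16), and the 11 higher ones all kept at least 50% of +/-. Trim10 and Fam46c, both abundant in maturing red cells, reached 82.9% and 78.1%. Ube2o, the enzyme that remodels the proteome of reticulocytes, had 137 FPKM in D45/-, against 75.8 in -/- and 134 in +/- (the authors' deposited table; 102%). Xpo7, a nuclear exportin needed as the nucleus condenses, was the lowest, at 24.03 FPKM in D45/-, against 9.31 in -/- and 47.9 in +/- (the authors' deposited table; 50.1%). Bcl2l1, which protects erythroblasts from death, reached 79.0%.

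Redox and glycation repair genes had 7 of 25 members higher and 0 lower (median log2 ratio 1.31). Prdx2, the abundant red cell peroxiredoxin, measured 3208 FPKM in D45/-, against 1245 in -/- and 4415 in +/- (the authors' deposited table; 72.7% of +/-). Gpx1, a glutathione peroxidase, reached 69.8%, Blvrb, a flavin reductase, 69.1%, and the mitochondrial superoxide dismutase gene Sod2 55.1%. Fn3k and Fn3krp were the lowest of the higher members at 10.1% and 43.6%. Iron handling was split, with 3 of 20 members higher and 3 lower. Tfrc, the transferrin receptor, stood at 131 FPKM in D45/-, against 45.3 in -/- and 159 in +/- (values of the authors' deposited table), and Steap3, which reduces iron in endosomes, was at 105 in D45/- against 34.9 in -/- there. Hamp (hepcidin), Hmox1 (heme oxygenase) and Bmp6 were the lower ones.

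**Figure D2:**
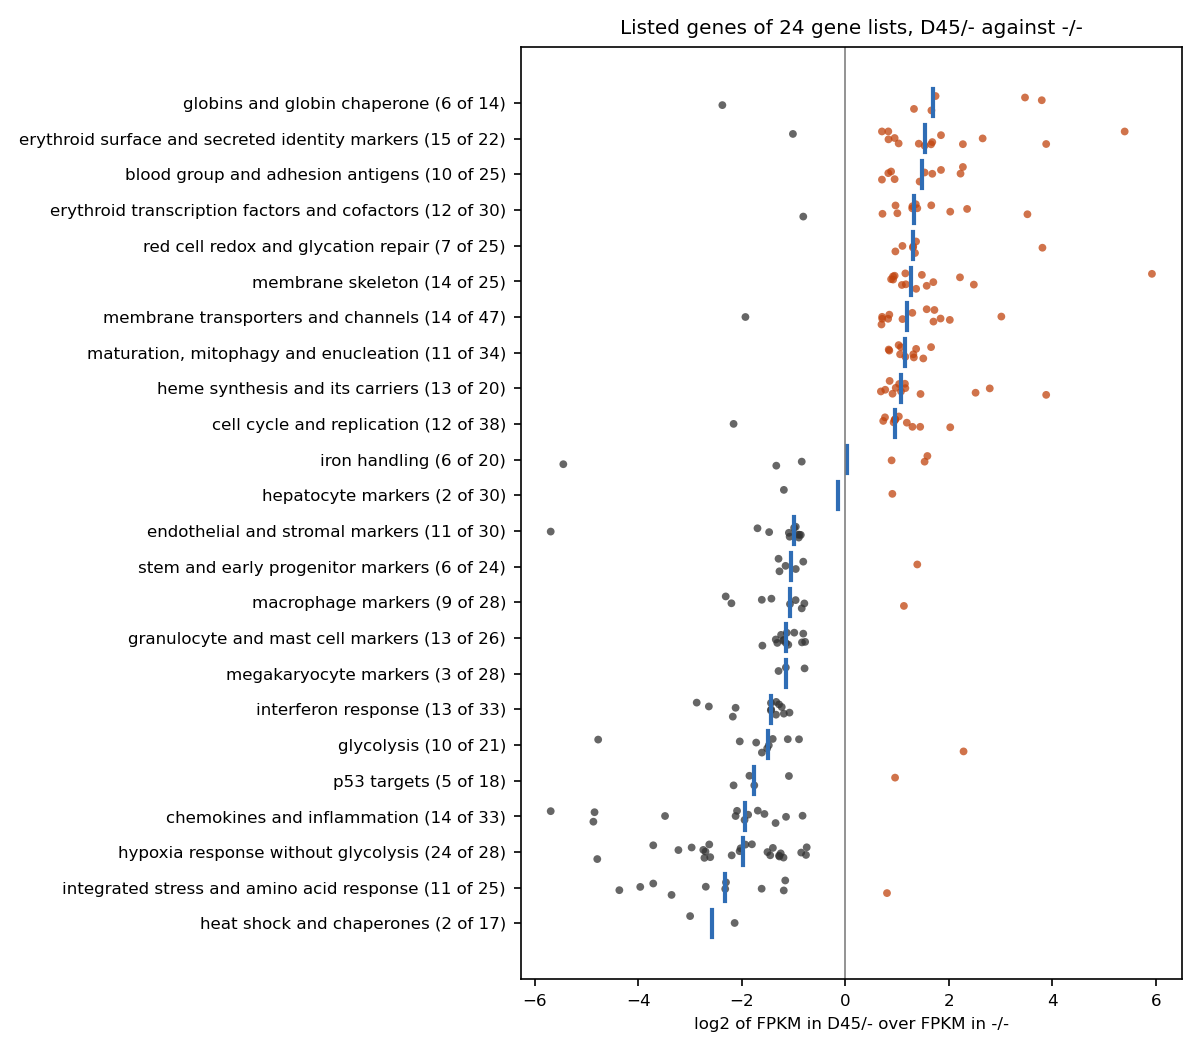
Log2 of the FPKM in D45/- over that in -/- (x axis) for each listed member of the 24 gene lists (rows, with the number listed of the list's size). Points right of 0 are higher and points left of 0 lower in D45/-, and vertical bars are medians over listed members with a ratio. Red cell lists lie right of 0 with 1 lower point at most, and the hypoxia, chemokine, interferon, megakaryocyte, granulocyte and endothelial lists lie wholly left.

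The genes that stayed low fall into 2 sets. In the first, 32 higher genes had passed the authors' threshold above -/- and still lay below 50% of +/-, with a median of 43.5% in D45/- against 10.6% in -/-. Nxpe2 (chr9:48126086-48148981, mm9) was the lowest, at 5.19 FPKM in D45/-, against 0.825 in -/- and 79.2 in +/- (the authors' deposited table; 6.55% of +/-). Slc2a4, the insulin-responsive glucose transporter GLUT4, had 0.714 FPKM in D45/-, against 0.217 in -/- and 10.7 in +/- (the authors' deposited table; 6.66%), with a q of 0.0364 between D45/- and -/-. Slc43a1 (chr2:84679564-84703743, mm9), a carrier of large neutral amino acids, measured 31.0 FPKM in D45/-, against 8.66 in -/- and 172 in +/- (the authors' deposited table; 17.97%). Sowaha stood at 2.70 FPKM in D45/-, against 0.0641 in -/- and 13.9 in +/- (the authors' deposited table; 19.4%). Besides these, Fn3k at 10.1% and Epb4.9 at 21.7% completed the 6 genes under 25%. Each of the 6 was over 3-fold above -/-. A D45/- level between the other genotypes was fixed by the choice of this set, above -/- and below 50% of +/-.

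Ubac1, a subunit of a ubiquitin ligase, had 114 FPKM in D45/-, against 25.6 in -/- and 305 in +/- (the authors' deposited table; 37.5% of +/-). Its catalytic partner in that ligase, Rnf123, lay above the line at 57.2%, with 71.1 FPKM in D45/- against 28.4 in -/- and 124 in +/- per the authors' deposited table. Pklr, the pyruvate kinase of red cells, measured 168 FPKM in D45/-, against 34.4 in -/- and 354 in +/- (the authors' deposited table; 47.4%). Neighbouring genes occur among the 32: Fn3k with Fn3krp, Tmc6 with Tmc8, and Icam4 with Icam5. Tmc6 stood at 21.0 FPKM in D45/-, against 7.64 in -/- and 52.2 in +/-, and Tmc8 at 13.7 in D45/-, against 4.85 in -/- and 33.6 in +/-, according to the authors' deposited table. Just inside the 50% line stood Klf3 at 48.8%, and just outside it Xpo7 at 50.1%.

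In the second set, 67 genes were lower than +/- in both genotypes and are not listed between D45/- and -/-. They come from the 142 genes listed lower in D45/- than +/- (1.1% of tests) and the 879 listed lower in -/- than +/- (6.78%), both against the same +/- libraries. The median level of the 67 genes was 45.5% of +/- in D45/- and 31.6% in -/-, and 9 of them lay at or below -/-. Unlike the first set, this set has no cut on the share of +/-. Its D45/- levels ran from 5.05% to 60.9% of +/-, so part of it lies above the cut of the first set. A missing listing does not show equal levels. Slc1a5 (chr7:17366694-17383623, mm9), a glutamine carrier, had 17.7 FPKM in D45/-, against 17.6 in -/- and 98.5 in +/- (the authors' deposited table; 17.99% of +/-). Slc2a1, the glucose transporter GLUT1, measured 159 FPKM in D45/-, against 111 in -/- and 690 in +/- (the authors' deposited table; 23.0%). Darc, the Duffy antigen receptor, stood at 4.42 FPKM in D45/-, against 2.57 in -/- and 19.7 in +/- (the authors' deposited table; 22.4%). For these 3 genes D45/- was under 2-fold above -/- and under 25% of +/-.

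Phospho1, a phosphatase of phosphocholine and phosphoethanolamine, had 1.08 FPKM in D45/-, against 0.729 in -/- and 15.8 in +/-, as the authors' deposited table gives it. Abi3 is given the same locus as Phospho1 in the authors' table, so their reads may not be fully separated, and it measured 3.16 FPKM in D45/-, against 2.26 in -/- and 21.8 in +/- (values of the authors' deposited table). Rgcc, a regulator of the cell cycle, was among the 9 at or below -/-, with 3.39 FPKM in D45/-, against 4.26 in -/- and 22.7 in +/-, according to the authors' deposited table. Bcl11a, the repressor of embryonic and fetal globin, stood at 15.3 FPKM in D45/-, against 12.6 in -/- and 30.6 in +/-, as the authors' deposited table gives it. Cdkn2d, a cell cycle inhibitor, had 16.8 FPKM in D45/-, against 10.6 in -/- and 33.4 in +/- (values of the authors' deposited table). Lmna, which encodes the nuclear lamina proteins A and C, measured 115 FPKM in D45/-, against 119 in -/- and 216 in +/-, according to the authors' deposited table. Several others, such as Slc4a5 and Apol11b, stood under 1 FPKM in all genotypes, where the ratio rests on little signal, and 36 of the 67 reached 5 FPKM in the higher of D45/- and -/-.

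**Figure D3:**
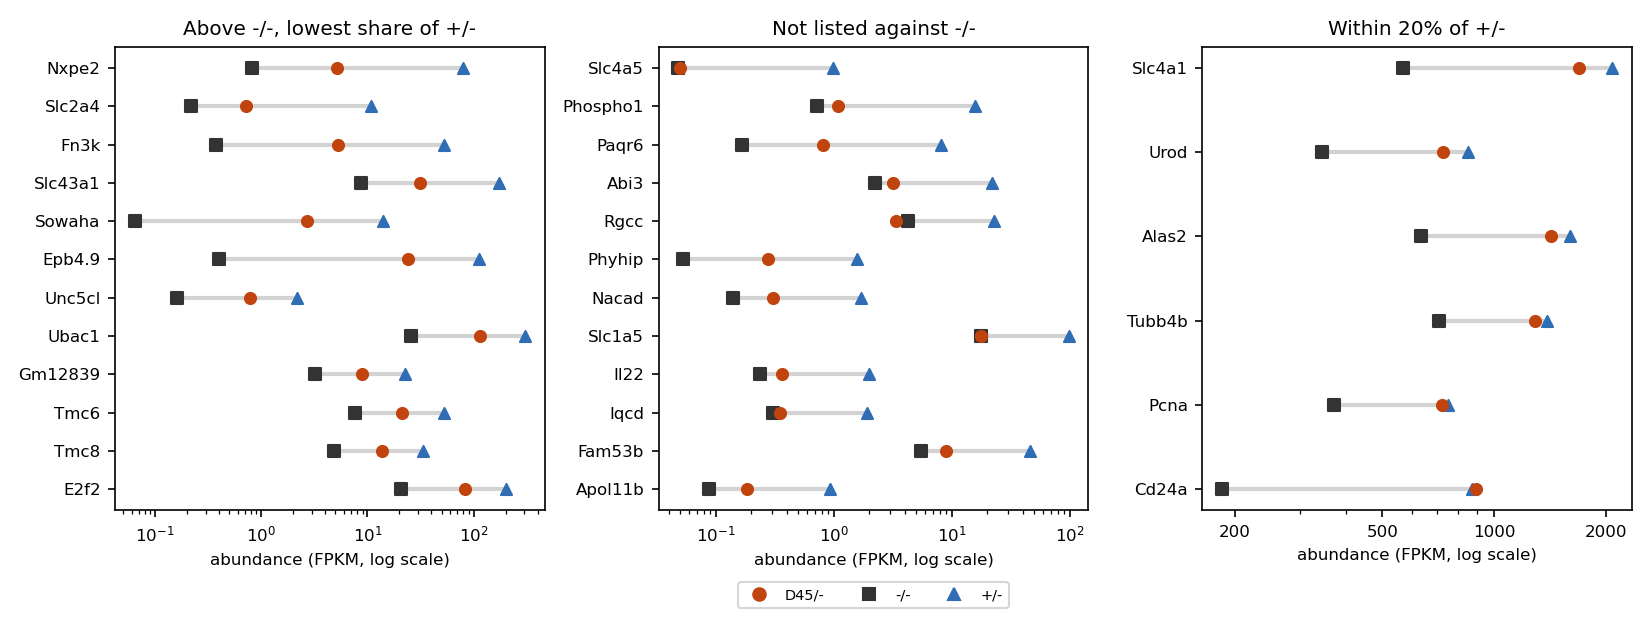
FPKM on a log axis (x) of single genes (rows) in D45/- (circles), -/- (squares) and +/- (triangles), 1 value per genotype with no replicate error. The left panel holds the 12 genes above -/- with the lowest share of +/-, the middle panel 12 genes lower than +/- in both genotypes and not listed between D45/- and -/-, and the right panel abundant genes within 20% of +/-. In the right panel circles sit beside triangles, as for Pcna at 726 FPKM in D45/- against 750 in +/-.

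The most abundant higher genes within 20% of +/- were chosen for that closeness, and other abundant ones, such as Prdx2 at 72.7%, lay lower. Beside Alas2, Slc4a1 stood at 1690 FPKM in D45/-, against 568 in -/- and 2086 in +/- (the authors' deposited table; 81.0%). The beta-tubulin gene Tubb4b had 1288 FPKM in D45/-, against 709 in -/- and 1389 in +/-, as the authors' deposited table gives it. In all, 23 higher genes exceeded 120% of +/-. Actc1, a cardiac actin, measured 3.87 FPKM in D45/-, against 0.337 in -/- and 0.594 in +/- (the authors' deposited table; 651%). Car3, a carbonic anhydrase, stood at 35.2 FPKM in D45/-, against 8.31 in -/- and 14.02 in +/- (the authors' deposited table; 251%). Clec4f, a lectin of liver macrophages, had 5.03 FPKM in D45/-, against 2.30 in -/- and 1.55 in +/- (the authors' deposited table; 324%), with a q of 0.0399 against -/-.

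The lower genes included most of the list of the response to low oxygen, of which 24 of 28 were lower in D45/- than in -/- and 0 higher (85.7% against 4.89% of all tests; median log2 -1.98). Ddit4, which restrains mTOR signalling, stood at 1.65 FPKM in D45/-, against 21.6 in -/- and 2.64 in +/- (values of the authors' deposited table). Bnip3, a mitophagy receptor, had 26.5 FPKM in D45/-, against 178 in -/- and 22.9 in +/-, according to the authors' deposited table. Vegfa, the vascular growth factor, measured 15.3 FPKM in D45/-, against 62.9 in -/- and 16.7 in +/-, as the authors' deposited table gives it. Over the 19 members with a +/- level the median was 115% of +/-, from 62.6% for Ddit4 to 158% for the histone demethylase gene Kdm3a.

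Glycolysis had 9 of 21 members lower and 1 higher, Pklr. Aldoa stood at 909 FPKM in D45/-, against 2533 in -/- and 904 in +/- (the authors' deposited table; 101% of +/-). Pgk1 had 199 FPKM in D45/-, against 610 in -/- and 203 in +/- (values of the authors' deposited table), and Hk2, the inducible hexokinase, had 4.11 in D45/-, against 16.9 in -/- and 5.11 in +/-. Pkm, the pyruvate kinase gene of most tissues, measured 262 FPKM in D45/-, against 692 in -/- and 289 in +/- (the authors' deposited table; log2 -1.40). The red cell enzyme and the general one thus moved in opposite directions, Pklr at 2.28 and Pkm at -1.40.

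Some stress genes were lower, and most members of the stress lists are not listed. The integrated stress and amino acid list had 10 of 25 lower and 1 higher, Ppp1r15a, a phosphatase subunit that reverses the stress signal on translation (183 FPKM in D45/-, against 105 in -/- and 291 in +/- per the authors' deposited table). Trib3 stayed above +/-, with 6.69 FPKM in D45/-, against 33.4 in -/- and 3.13 in +/- (the authors' deposited table; 214%). The heat shock genes Hspa1a and Hspa1b, near-identical copies that may share reads, lay below both other genotypes: Hspa1b stood at 2.19 FPKM in D45/-, against 17.5 in -/- and 10.6 in +/-, according to the authors' deposited table. These were the 2 listed members of 17 on their list. The p53 target list had 4 of 18 lower, among them Cdkn1a, Bbc3 and Plk2, and 1 higher, Btg2.

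**Figure D4:**
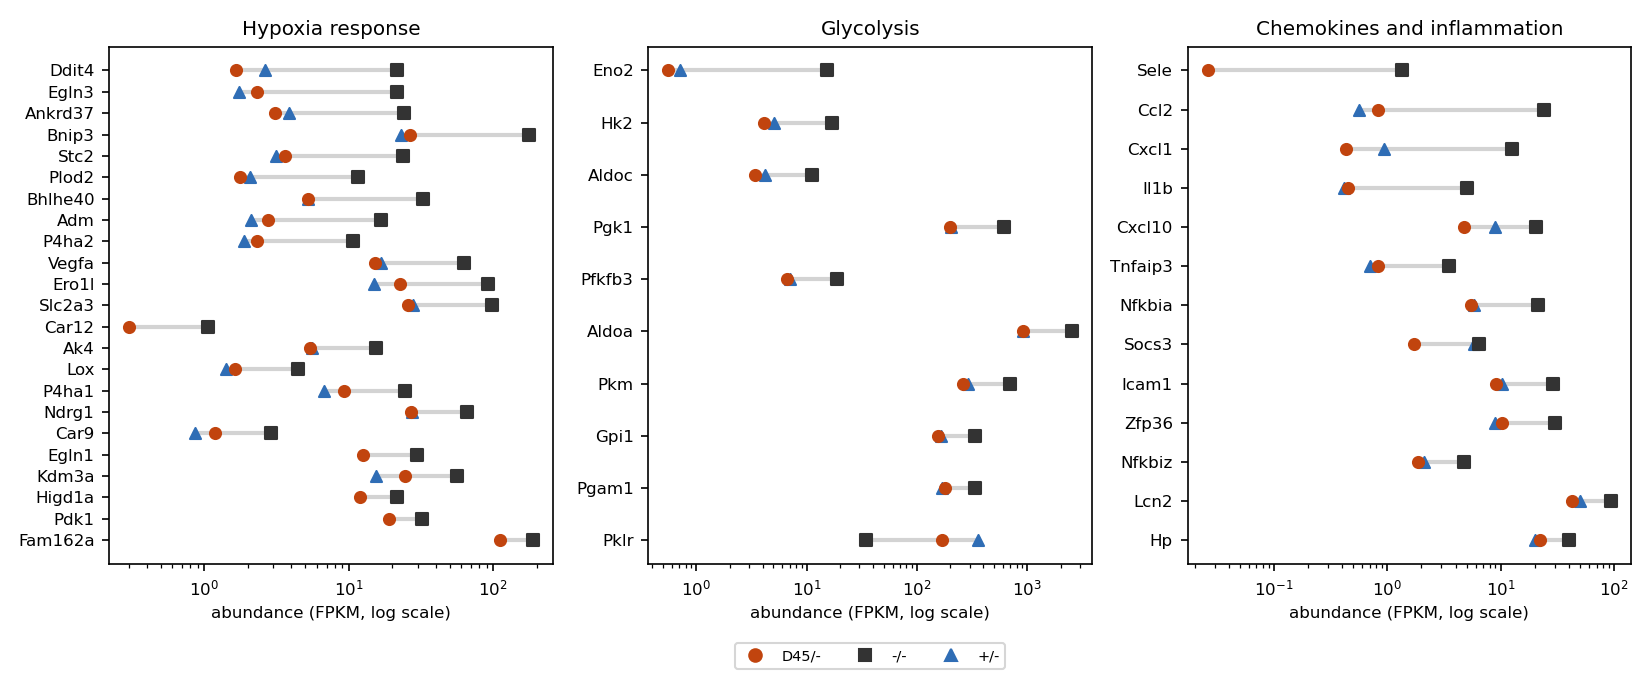
FPKM on a log axis (x) of the listed members of 3 lists (rows) in D45/- (circles), -/- (squares) and +/- (triangles, drawn where the gene is listed against +/-), without Cxcl2, which is at 0 in D45/-, and without genes not reported here. In the hypoxia panel all squares drawn lie right of the circles, and in the glycolysis panel only Pklr has its circle right of its square.

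Chemokines and inflammatory genes had 14 of 33 lower and 0 higher (median log2 ratio -1.95). Ccl2, which draws monocytes, had 0.834 FPKM in D45/-, against 24.3 in -/- and 0.562 in +/- (the authors' deposited table; -4.87). Cxcl1, which draws neutrophils, measured 0.434 FPKM in D45/-, against 12.5 in -/- and 0.933 in +/- (the authors' deposited table; -4.84). Cxcl2 was listed at 0 in D45/-, against 2.96 FPKM in -/- and 0 in +/-, as the authors' deposited table gives it, so no fold is given. Il1b, an inflammatory cytokine, stood at 0.454 FPKM in D45/-, against 5.08 in -/- and 0.415 in +/- (the authors' deposited table; -3.48). The interferon list had 13 of 33 lower and 0 higher (median -1.43), most at low abundance. Ifitm3 had 30.2 FPKM in D45/-, against 76.1 in -/- and 24.3 in +/- (values of the authors' deposited table), and Oasl2 had 0.782 in D45/-, against 3.53 in -/- and 0.801 in +/-.

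Some markers of other cells were lower in D45/- as well, and 13 to 28 members of each marker list are not listed in this comparison. Granulocyte and mast cell markers had 13 of 26 lower and 0 higher, and the summed level of the 13 was 1363 FPKM in D45/- against 2695 in -/- per the authors' deposited table. The macrophage list had 8 of 28 lower (28.6%) and 1 higher, Clec4f (3.57%, near the 3.48% of all tests). Its summed level over listed members was 267 FPKM in D45/- against 493 in -/- per the authors' deposited table. Endothelial and stromal markers had 11 of 30 lower and 0 higher (136 FPKM in D45/- against 269 in -/-, summed per the authors' deposited table). Megakaryocyte markers had 3 of 28 lower and 25 not listed. None of these listed markers is at 0 in either genotype. Hepatocyte markers had 1 of 30 higher, Cps1, and 1 lower, Serpina1b. Each is 3.33% of the list, below the 3.48% higher and 4.89% lower of all tests. Markers of stem cells and early progenitors had 5 of 24 lower (20.8%) and 1 higher (4.17%, near the share of all tests). The part of these cell types in the lower genes, and in the abundance of red cell genes beside them, was not tested. Elane and Ctsg, proteases of neutrophil granules, measured 30.1 and 20.5 FPKM in D45/-, against 76.5 and 46.5 in -/- and 23.7 and 15.7 in +/-, according to the authors' deposited table. Marco, a macrophage scavenger receptor, lay below both, at 5.19 FPKM in D45/-, against 25.7 in -/- and 14.9 in +/-, as the authors' deposited table gives it.

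Low abundance limits other extremes. Hamp had the largest negative ratio among genes above 0 in both genotypes and of at least 5 FPKM in the higher one, at 0.376 FPKM in D45/- against 16.4 in -/- (the authors' deposited table; -5.45, q 0.0364). Igfbp1, a binding protein of insulin-like growth factors made by hepatocytes, was abundant, at 74.6 FPKM in D45/-, against 904 in -/- and 87.1 in +/- (the authors' deposited table; -3.60). Eno2, a neuronal enolase, stood at 0.560 FPKM in D45/-, against 15.3 in -/- and 0.716 in +/- (the authors' deposited table; -4.77). Eno2 was under 1 FPKM in D45/- and +/-.

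KLF1 peaks did not enter the choice of the 1085 genes, although they decided which promoters were printed. The authors listed 485 peaks in MommeD45 and 1203 in wildtype, after peaks with several summits were counted once. A MommeD45 peak lay within 10 kb of 88 of the 451 higher genes (19.5%, exact 95% interval 16.0 to 23.5) and a wildtype peak near 173 (38.4%, 33.8 to 43.0). Of the 634 lower genes, 12 had a MommeD45 peak (1.89%, 0.982 to 3.28) and 25 a wildtype peak (3.94%, 2.57 to 5.77). Other genes of the authors' table, 884 in all, stood between, at 4.86% for MommeD45 and 12.6% for wildtype. Intervals cover counting error, and neighbouring genes can share a peak.

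By kept level, wildtype peaks lay near 19 of the 32 higher genes under 50% of +/- (59.4%, 40.6 to 76.3), 64 of the 148 at 50% to 80% (43.2%, 35.1 to 51.6) and 75 of the 215 at 80% or more (34.9%, 28.5 to 41.7). MommeD45 peaks lay near 8 (25%), 35 (23.6%) and 38 (17.7%) of the same genes. Among genes with a wildtype peak, a MommeD45 peak was also near 7 of 19 (36.8%, 16.3 to 61.6), 30 of 64 (46.9%, 34.3 to 59.8) and 32 of 75 (42.7%, 31.3 to 54.6), so the 3 intervals overlap. Of the 67 low genes not listed against -/-, 7 had a MommeD45 peak (10.4%, 4.30 to 20.3) and 18 a wildtype one (26.9%, 16.8 to 39.1). With 1 library per allele and unknown copy number, a peak missing from the MommeD45 list does not show lost binding.

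**Figure D5:**
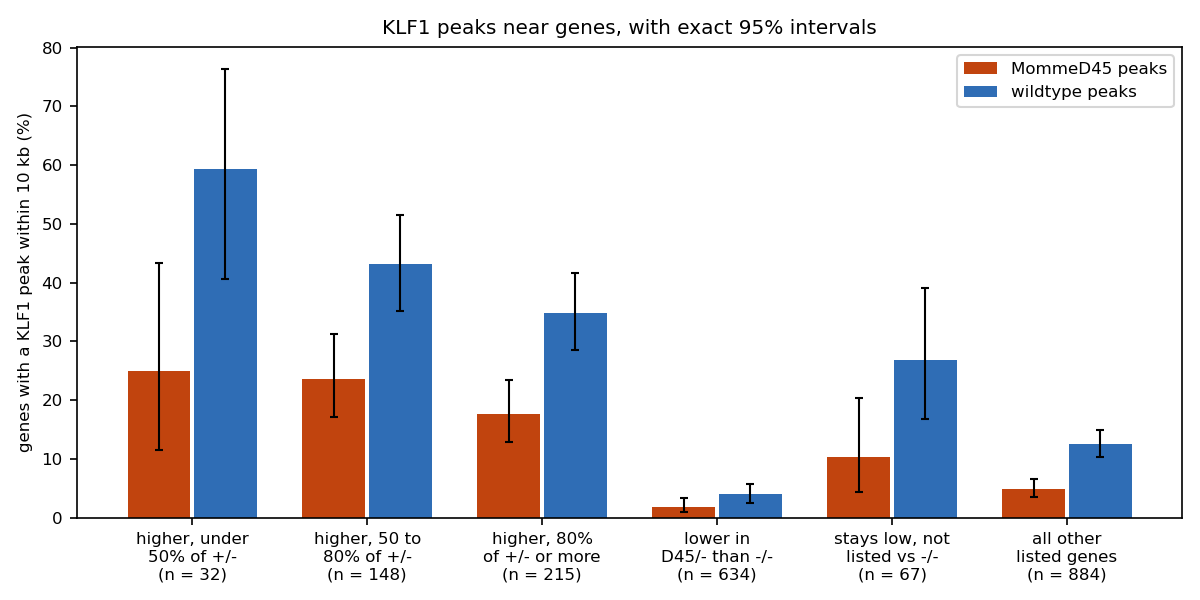
Share of genes (y axis, percent) with a KLF1 peak within 10 kb in MommeD45 and wildtype livers (bars, 1 ChIP library each), for the classes of genes named on the x axis with their number. Whiskers are exact 95% intervals of counting error, and the lower genes stand at 1.89% for MommeD45 and 3.94% for wildtype peaks.

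A wildtype peak alone lay near 12 of the 32 higher genes under 50% of +/- and near 11 of the 67 low genes not listed against -/-, while 12 of the 32 and 49 of the 67 had no peak in either list. Nxpe2 and Sowaha were among those with none. Epb4.9 had peaks of fold enrichment 3.46 and 4.896 in the wildtype list and none in the MommeD45 list. Slc2a4 (5.23 and 3.40), Slc43a1 (3.98), Slc1a5 (4.66) and Tmc6 (5.04) likewise had peaks in the wildtype list only. A wildtype peak of fold enrichment 5.90 lay 1201 bases from Fn3k. Others under 50% of +/- had peaks with both alleles. E2f2 had a peak of fold enrichment 7.05 in the MommeD45 list and 12.3 in the wildtype list, and a further one of 6.48 in wildtype only. Kcnn4 had 6.89 in MommeD45 and 7.70 in wildtype, E2f4 had 4.32 in MommeD45 and 7.21 in wildtype, and Ubac1 had 3.98 in MommeD45 and 4.18 in wildtype. Fold enrichment is the authors' value within each list, and the 2 lists are not scaled to each other.

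Genes near +/- also appeared with both lists. Add2 had a peak of 4.02 in MommeD45 and 5.10 in wildtype, Slc4a1 had 4.74 in MommeD45 and 5.04 in wildtype, and Urod had 3.92 in MommeD45 and 8.72 in wildtype. The peak near Klf1, 3142 bases from it in MommeD45 and 3099 in wildtype, had a fold enrichment of 10.6 in MommeD45 and 28.7 in wildtype. Of the red cell lists, the higher transcription factors had MommeD45 peaks near 7 of 11 genes and wildtype peaks near 8, and the higher maturation genes had MommeD45 peaks near 0 and wildtype peaks near 3 of 11. Higher heme genes had MommeD45 peaks near 5 and wildtype peaks near 8 of 13. Higher membrane skeleton genes had MommeD45 peaks near 6 and wildtype peaks near 8 of 14. Over all 451 higher genes the shares were 19.5% for MommeD45 and 38.4% for wildtype peaks. Each list count rests on few genes, and differences between lists were not tested. Within 500 bp of the start, a MommeD45 summit was found for 33 and a wildtype summit for 68 of the 366 higher genes with a promoter, against a MommeD45 summit for 8 and a wildtype summit for 11 of 494 lower ones.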

How the data were processed

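Whole fetal livers gave 9 mRNA and 4 ChIP libraries, of which the 6 mRNA libraries of D45/- and -/- enter this comparison. Reads were mapped to mm9 with TopHat2 2.0.10, per the submitters' processing notes, and compared with cuffdiff, per the design text, while no source used here gives its version, options or annotation. The deposited table gives 1 abundance per genotype and no replicate values, so no SD or n stands beside a value and depth is unknown. Its abundance was taken as FPKM, normalised by the authors, from the column layout of cuffdiff. The deposited log2 ratio has no pseudocount and was turned to D45/- over -/-. The deposited test statistic, a score, was not used. P-values and q-values are the authors' own. Ranks of p fit a single Benjamini-Hochberg correction of all 3 comparisons with 38894 tests, and 12965 per comparison is an assumption. Listed genes are those the authors marked significant, at a q below 0.05. Genes that overlap or share near-identical copies may share reads.

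The authors used MACS2 to call peaks on mm9 after mapping with Bowtie2 and duplicate removal with Picard, per the description sheet deposited with them. The deposited lists give pileup signal, −log10 of p and q, and fold enrichment over local background. Only the fold was used. A gene counted as having a peak if one lay no more than 10 kb from its mm9 locus. Shares carry exact (Clopper-Pearson) 95% intervals. Start sites for summits came from the mm9 loci, and promoters with their motifs from RefSeq GRCm38.p6. Summit and motif positions are each counted from the start in their own build. Whether both starts are the same base is not shown, so distances between motif and summit are not given.

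The 24 gene lists and the choice of genes were made with earlier results of these data known. Genes were named by a rule: Klf1, the 12 highest and 12 lowest with at least 5 FPKM in the higher genotype and above 0 in the lower, up to 5 listed members per list, 12 of each set that stayed low and the 8 most abundant within 20% of +/-. Other list members named in the text, Lmna, and the genes above 120% of +/- were chosen after their values were seen. A few genes that the rule named are not reported here. Alternatives covered q below 0.01, q within the comparison, filters at 1 and 5 FPKM, a pseudocount of 1, other distances and stronger peaks. The estimate of the number of tests and the q adjustment were tested on simulated data, and the peak search on a small made-up example. Python 3.11.15, numpy 2.4.6, scipy 1.17.1, pandas 2.3.3 and matplotlib 3.10.9 were used.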

Additional observations from a re-analysis of the deposited data

How the results depend on the processing

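Counts of listed genes depended on the threshold. At a q below 0.01, 265 genes were higher and 353 lower, and with a log2 change of at least 1 at a pseudocount of 1, 184 were higher and 255 lower. With at least 5 FPKM in the higher genotype the lower genes numbered 397. A filter of 1 FPKM kept both counts within 1.5 times. Recomputing q within the comparison used only genes already listed and an assumed number of tests. No gene could enter that way, so the unchanged counts are no check of the threshold. The share of higher genes at 50% or more of +/- ran from 91.7% to 93.7% and the median kept level from 81.8% to 82.8% over all 3 alternatives tried for each. For peaks within 10 kb, 173 higher and 25 lower genes had a wildtype peak. With MommeD45 peaks in its place these were 88 and 12, with peaks of at least 10-fold enrichment 22 and 2, and within 50 kb 65 lower genes had one. Of 119 named genes listed here, 102 kept a q below 0.01 and 17 did not, among them Hamp, Slc2a4, Tubb4b, Clec4f, Cps1 and Nupr1; none changed direction under a pseudocount of 1. At a q below 0.01 the number of listed members moved by over 1.5 times for 7 of 24 lists: transporters, iron handling, granulocyte, macrophage, endothelial, hepatocyte and stem cell markers. The cause of these differences was not tested. No paired analysis was possible because the deposited table holds no replicate values, and for the same reason no replicate could be left out. Sequencing depth is unknown, so the precision of low FPKM values cannot be given.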

Other observations

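Listed genes were also grouped by the start of their symbols, a grouping made after the values were seen and given as a description. It holds only genes listed as significant in this comparison, of which 451 of 1085 are higher and 634 lower, and members not listed are not counted. All 13 listed collagen genes were lower in D45/- than in -/-, with a median log2 ratio of -0.99. Col6a1, a chain of the microfibrillar collagen of connective tissue, measured 6.62 FPKM in D45/-, against 22.4 in -/- and 7.43 in +/-, as the authors' deposited table gives it. Col4a1, a chain of basement membrane collagen, stood at 31.0 FPKM in D45/- against 57.9 in -/- per the authors' deposited table. All 6 listed Adamts genes, which encode matrix proteases, were lower as well (median -1.28). The 6 listed genes of interleukins and their receptors were lower (median -1.54), and 7 of 8 listed C-type lectin genes were lower.

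All 7 listed genes of ubiquitin-conjugating enzymes were higher in D45/- than in -/- (median log2 ratio 0.85). Ube2c, which serves the anaphase-promoting complex in mitosis, had 377 FPKM in D45/-, against 175 in -/- and 565 in +/- (the authors' deposited table; 66.7% of +/-). Ube2l6 measured 561 FPKM in D45/-, against 226 in -/- and 609 in +/- (the authors' deposited table; 92.2% of +/-). Of 24 listed solute carrier genes, 16 were higher and 8 lower. Slc16a3, which exports lactate, was among the lower ones, at 40.8 FPKM in D45/-, against 106 in -/- and 43.2 in +/-, as the authors' deposited table gives it.

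A few values stand at 0. Stfa1, a stefin of a family with near-identical copies, was listed at 0 in D45/-, against 209 FPKM in -/- and 101 in +/-, as the authors' deposited table gives it. Snord89, a small nucleolar RNA, stood at 31.1 FPKM in D45/- and was listed at 0 in -/- and +/-, as the authors' deposited table gives it.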
